A study of Mus musculus with 157 samples.

Results

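The mRNAs of the immunoglobulin constant regions and of the J chain were followed along polysome gradients of mouse splenic B cells. The genes were chosen by symbol: Igkc (kappa light chain), Iglc1 and Iglc2 (lambda light chains), Ighm, Ighd, Ighg3 and Ighg2b (the mu, delta, gamma 3 and gamma 2b heavy chains) and Igj (the J chain, also named Jchain). Of these 8 symbols 6 were found among the 19600 genes of the count table, and Ighd and Iglc1 were not analysed here. All 6 passed the filter on low counts in every test below.

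The B cells came from spleens of C57BL/6Babr mice of 8 to 12 weeks, isolated with a B cell isolation kit, and every group was cultured with LPS at 10 µg/ml. LPS gradients came from cells kept for 48 h with no further drug. LPS+ET cells also had etoposide, a topoisomerase II poison that leaves DNA double-strand breaks, at 20 µM for 4 h. Their labels give 48 h of LPS and 4 h of etoposide. The methods of the study add etoposide after 48 h of LPS, so LPS+ET cells may have been in culture longer than LPS cells. Longer culture and etoposide could then not be told apart. LPS+ET+KU cells were given KU55933, which inhibits the ATM kinase, at 10 µM. It went in 1 h before the etoposide, after 47 h of LPS per the labels. All extracts were made after 3 min of cycloheximide at 100 µg/ml. Each group had 4 gradients, described as biological replicates and named here by their library pools LUL15, LUL16, LUL17 and LUL18, and how many animals stood behind a gradient is not given in the sources used here. The cells were a population stimulated in culture, not a sorted plasmablast gate.

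An antibody is made of heavy and light chains, and each chain joins a variable to a constant region. Counts at the 3′ end of a constant gene do not tell which variable region an mRNA carries, or whether it carries one. A heavy chain mRNA can end at an early poly(A) site, which gives the secreted protein, or run on to exons for a membrane anchor, which gives the B cell receptor. The J chain links IgM monomers into pentamers and is made as B cells turn into antibody-secreting cells. LPS drives mouse B cells to divide and secrete IgM, and switches a part of them to IgG3 and IgG2b. These proteins enter the endoplasmic reticulum, so their mRNAs are translated on membrane-bound ribosomes.

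Counts were tallied at poly(A) sites, and the last 30 bases of the annotated transcript (or of the counted site, for the J chain) are shown because they separate secreted from membrane heavy chain mRNAs. Sequences run 5′ to 3′ on the strand of the gene and come from GENCODE M21 and the GRCm38 assembly. Capitals mark the poly(A) hexamer AATAAA, or ATTAAA where AATAAA was not found, searched on the gene strand within these 30 bases.
Igkc-201, chr6:70726937-70726966, plus strand: atattcAATAAAgtgagtctttgcacttga
Iglc2-201, chr16:19198401-19198430, minus strand: atattaAATAAAatatcattagttaatcag
Ighm-201, secreted, chr12:113420741-113420770, minus strand: tagaAATAAAaaaaatccattcaaacgtca
Ighm-202, membrane, chr12:113418558-113418587, minus strand: tggaAATAAAtactttatcttgtgaactca
Ighg3-201, secreted, chr12:113359575-113359604, minus strand: accctataAATAAAgcacccagagatggga
Ighg3-202, membrane, chr12:113356224-113356253, minus strand: ttaataatAATAAAacatccttcaacattg
Ighg2b-201, secreted, chr12:113306285-113306314, minus strand: gcatccagcaaagcctggtaccatgtaaaa
Igj, first site, chr5:88520599-88520628, minus strand: tttgaacaATTAAAtagagtgctaagcata
Igj, second site, chr5:88521168-88521197, minus strand: aaaactaatgttccctttcaatcattagaa
AATAAA was found in 66.5% and ATTAAA in 16.5% of 9993 such windows at the major sites of other genes, and either hexamer in 80.9%. Neither was found at the secreted end of Ighg2b or at the second site of Igj. A hexamer in a window is a match of letters and says nothing of which factor used it.

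The deposited table splits each gene's counts by site only as a pooled value over all libraries, so the split could not be compared between treatments or fractions. For Ighm (ENSMUSG00000076617, chromosome 12, 113418950 to 113422730, minus strand), the secreted end held 1874966 counts, which was 85.3% of the gene, and the membrane end 14.7%. Ighg3 (ENSMUSG00000076615, chromosome 12, 113359665 to 113361232, minus strand) had 58.7% at the secreted site, 13 bases past the annotated end, and 41.3% at the membrane site. Ighg2b (ENSMUSG00000076613, chromosome 12, 113306389 to 113307933, minus strand) had 60.2% at the secreted and 39.8% at the membrane end. The membrane share was thus larger for Ighg3 and Ighg2b than for Ighm. Igkc (ENSMUSG00000076609, chromosome 6, 70726435 to 70726757, plus strand) and Iglc2 (ENSMUSG00000076937, chromosome 16, 19198401 to 19200351, minus strand) each had a single site. For Igj (ENSMUSG00000067149, chromosome 5, 88520512 to 88527891, minus strand), 92.2% of counts lay at the first site shown, 87 bases before the annotated end, and 7.85% at the second. Iglc2 has near-identical lambda copies, and Ighg2b a close relative in Ighg2c, so reads of these could have been split or pooled by the counting and their values carry that uncertainty.

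**Figure D1:**
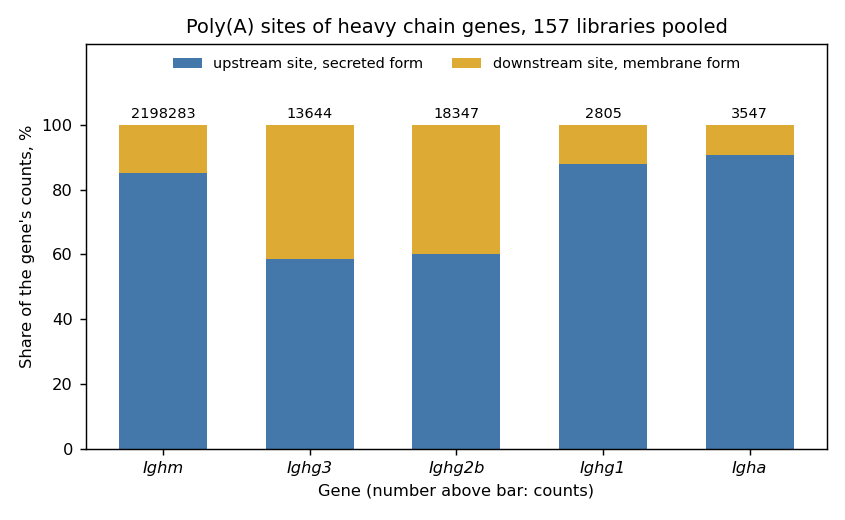
Share of pooled counts (percent of the gene, all libraries together) at the upstream, secreted and the downstream, membrane poly(A) site of the heavy chain genes with 2 sites, with the gene's counts above each bar. The secreted end held 85.3% for Ighm, 58.7% for Ighg3 and 60.2% for Ighg2b, and of the other constant genes 87.8% for Ighg1 and 90.8% for Igha.

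The data comprised 156 libraries, from 13 fractions of 12 gradients, and 1 library of fraction 17. Fractions 4 to 7 held monosomes, 8 to 10 light polysomes and 11 to 16 heavy polysomes. Library totals ran from 14724 to 4170688 counts (median 811932), with 6 libraries under 50000, and gradient totals from 6404957 to 21449781. Fractions went into library preparation at matched RNA concentrations, not in proportion to their yield, so the total of a fraction does not measure its mRNA. Levels are given in CPM, counts scaled to a total of 1000000 in a gradient, or in a class of fractions of a gradient, and since reads came from 3′ ends they are set side by side between genes without a length correction. PCR duplicates were removed by 5 random bases, and Igkc had up to 718923 counts at its single site in 1 library, so whether duplicates of so abundant an mRNA were fully resolved is not known. B cell markers summed to 6854 to 11331 CPM per gradient, T cell markers to 98.4 to 407, myeloid markers to 69.6 to 231, erythroid markers to 23.2 to 177 and NK cell markers to 0.325 to 4.43. Of the 8 T cell markers with rows, 6 were under 1 CPM on average, Cd3e, Cd3d and Cd3g among them, so that their sum came almost wholly from Lck and Cd2. The 4 NK cell markers, 3 of 4 erythroid markers and, among the B cell markers, Pax5 were also under 1 CPM.

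Igkc was the most abundant gene of the table, with 8914126 counts over the 12 gradients, and Ighm ranked 5 with 2198280. Iglc2 ranked 42, Igj 752, Ighg2b 1397 and Ighg3 1891. Together the 6 genes held 7.33% of all counts, and of their own counts 77.5% were Igkc, 19.1% Ighm and 2.79% Iglc2. The order Igkc, Ighm, Iglc2 held in 12 of 12 gradients. Below them the order was loose: Ighg2b lay above Ighg3 in 9 of 12 gradients, Igj above Ighg3 in 9 and Igj above Ighg2b in 8.

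Values of single gradients follow the order LUL15, LUL16, LUL17, LUL18 from here on. In LPS, Igkc stood at 34630, 50682, 63011 and 71572 CPM. Ighm stood at 9307, 10536, 17474 and 13136 CPM in the same gradients. Iglc2 was the steadiest, at 2602, 2658, 2560 and 2185 CPM. Igj, Ighg2b and Ighg3 were far lower. Igj had 87.0, 86.7, 213 and 170 CPM. Ighg2b had 139, 184, 90.4 and 133 CPM, and Ighg3 82.8, 98.3, 77.9 and 75.9 CPM. Pools LUL17 and LUL18 both lay above LUL15 and LUL16 for Igkc, Ighm and Igj, in all 3 treatments. The mean of this pair of pools over the mean of the other pair was 1.58, 3.55 and 3.24 for Igkc (LPS first, then LPS+ET and LPS+ET+KU), 1.54, 1.59 and 2.09 for Ighm and 2.21, 3.92 and 4.48 for Igj. The source of this split between pools was not tested. In bulk samples like these, fewer cells that make a chain and less mRNA per such cell cannot be told apart.

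**Figure D2:**
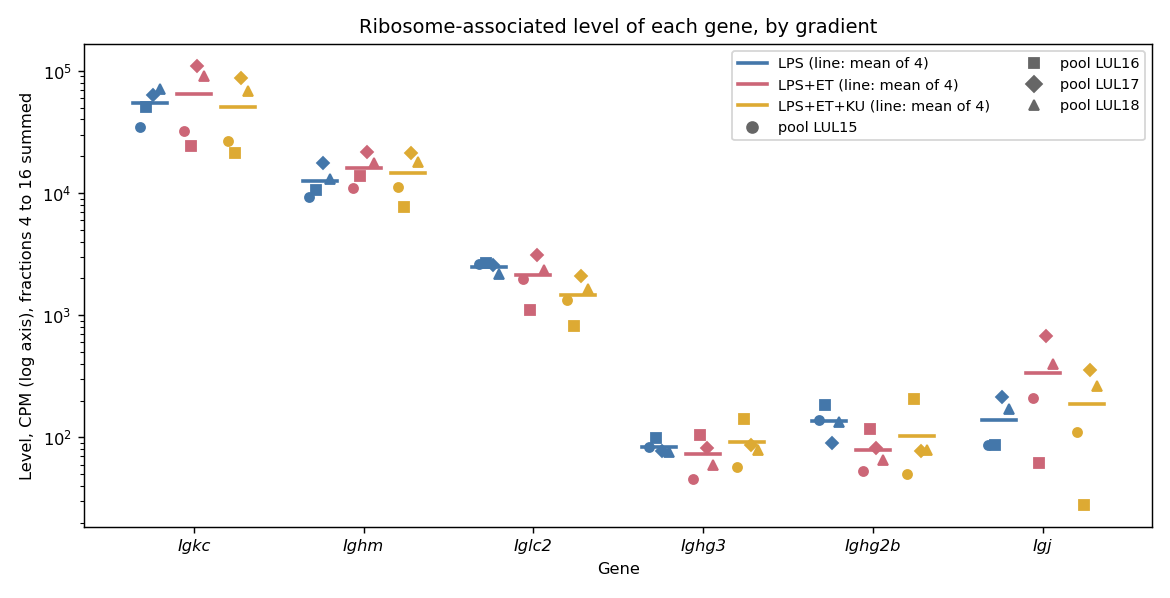
Level of each gene in each gradient (CPM of the gradient, log axis), by treatment, with 1 point per gradient marked by pool and a line at the mean of 4. Igkc lies between 21119 and 109697 CPM and Ighm between 7669 and 21863 CPM, while Igj spreads from 28.1 to 670 CPM.

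The genes took different places along the LPS gradients. To compare them, each fraction library was scaled to CPM and a gene's values over the 13 fractions were turned into percent of their sum. Ighm sat deepest, with its highest value in fraction 14 in 4 of 4 LPS gradients and 27.5% ± 3.4 (SD, n = 4) of its profile there. Igkc was highest in fraction 12 or 13, with 17.3% ± 2.6 in fraction 12. Iglc2, although it encodes a chain of similar length, was highest in fraction 9 or 10, with 16.8% ± 1.1 and 15.9% ± 2.6. Ighg3 had 2 maxima, one of 12.8% ± 2.2 in fraction 9 and one of 9.14% ± 3.1 in fraction 14, around a low of 3.80% ± 0.75 in fraction 12. The fraction 12 library of LUL17 held 32306 counts in all, so its value for Ighg3 rests on few counts. Ighg2b was flat, between 4.61% and 10.5% in each fraction. Igj rose to 15.8% ± 1.1 in fraction 11.

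**Figure D3:**
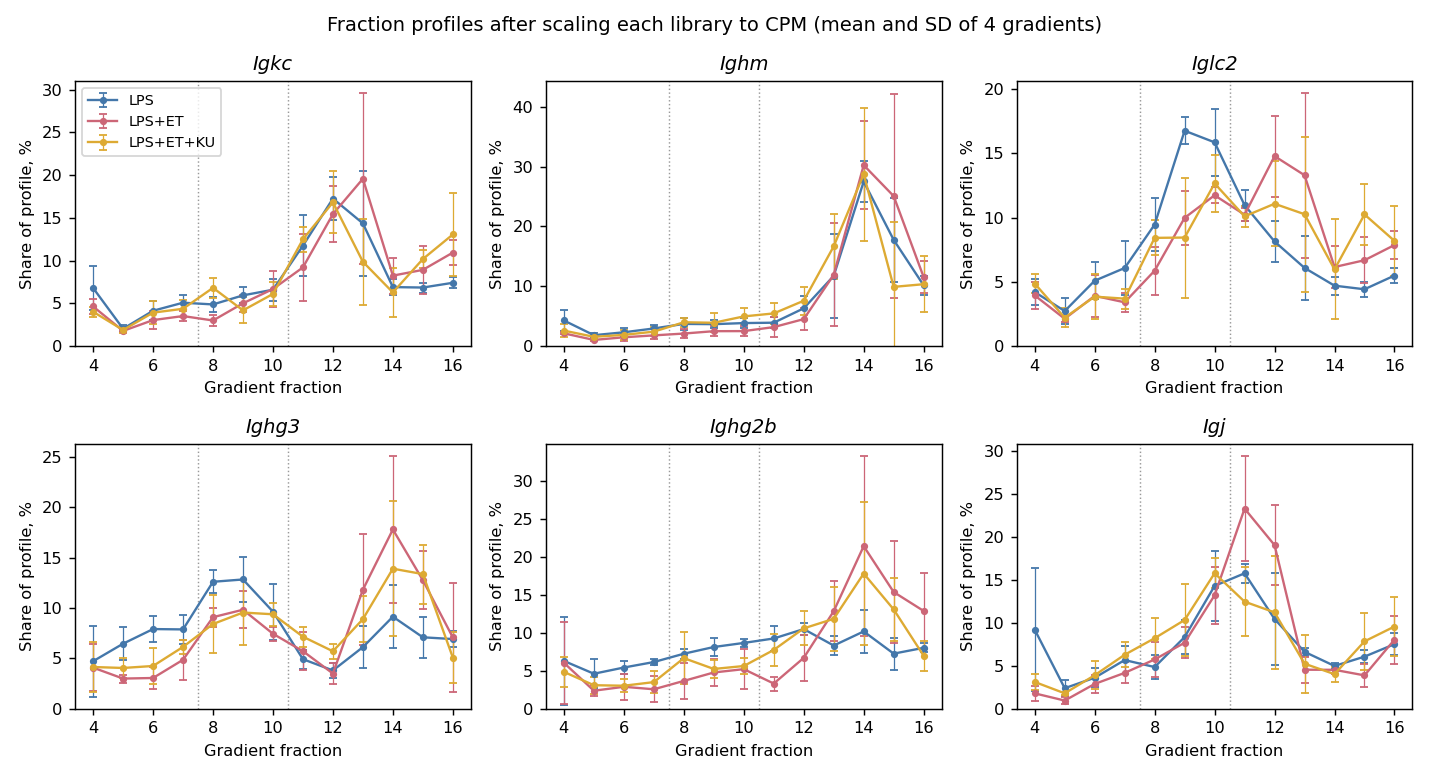
Share of each gene's scaled profile (percent, fractions 4 to 16 add to 100) against fraction number, by treatment, as mean and SD of 4 gradients, with dotted lines between monosomes, light and heavy polysomes. In LPS, Ighm peaks in fraction 14, while Iglc2 and Ighg3 have their maxima in fractions 8 to 10. Iglc2 and Ighg3 have more of their profile past fraction 11 in LPS+ET.

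The contrast of heavy polysomes with monosomes within LPS, with the gradient as a block, asked which of these mRNAs were enriched on many ribosomes. Ighm had 3573, 3892, 3928 and 3071 CPM in monosomes and 12702, 15369, 26957 and 18662 CPM in heavy polysomes. It was higher in heavy polysomes by 1.57 ± 0.15 on the log2 scale (SE, edgeR adjusted p = 1.71e-10). Igkc had 17076 to 27069 CPM in monosomes and 45614 to 97069 CPM in heavy polysomes. It rose by 0.95 ± 0.16 (adjusted p = 5.49e-06), but DESeq2 did not call it (adjusted p = 0.027). Igj rose by 0.64 ± 0.14 (adjusted p = 0.000107). Ighg3 was lower in heavy polysomes, by -1.04 ± 0.13 (adjusted p = 1.83e-08), with 58.1 to 121 CPM in monosomes and 57.2 to 76.0 CPM in heavy polysomes. Ighg2b (0.04 ± 0.12, adjusted p = 0.797) and Iglc2 (-0.02 ± 0.14, adjusted p = 0.894) passed in neither direction. So 3 of 6 were called higher and 1 of 6 lower, where 29.5% and 29.9% of all genes tested were. These differences are relative to the median gene, which TMM sets near 0 (0.02). On library totals alone the median gene was at 0.74, 5 of 6 were called higher, where 54.2% of genes were, and none lower, where 14.1% were. On that scale Iglc2 was at 0.71 and Ighg2b at 0.76, both called (adjusted p = 0.000202 and 2.83e-05), and Ighg3 at -0.31 was not (adjusted p = 0.0542), so that the direction of Iglc2 and the calls of all 3 depended on the scaling, while Ighm, Igkc and Igj kept theirs.

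Each profile was also summarised by its centre, the mean fraction number weighted by scaled CPM. In LPS it was 12.48 ± 0.33 for Ighm, 10.97 ± 0.22 for Igkc, 10.57 ± 0.50 for Ighg2b, 10.35 ± 0.37 for Igj, 10.06 ± 0.32 for Iglc2 and 9.91 ± 0.40 for Ighg3 (SD, n = 4). Ighm had the highest centre in 12 of 12 gradients, treated ones included. Igkc lay above Iglc2 and above Ighg3 in 12 of 12. Ighg2b, Igj, Iglc2 and Ighg3 did not differ in LPS beyond their spread from the next gene in this order.

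Whether etoposide altered the ribosome-associated level of these mRNAs was asked with the counts of fractions 4 to 16 summed per gradient. No member of the group passed at an adjusted p under 0.01, against 12.7% of all genes tested, and 1 of 6 had an unadjusted p under 0.05 (Ighg2b). DESeq2 also called 0. In LPS+ET Igkc had 32422, 24275, 109697 and 91441 CPM, a spread that covers the LPS values on both sides. The difference was 0.13 ± 0.55 on the log2 scale (adjusted p = 0.902), and with the pool as a block it turned to -0.16 and remained uncalled.

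Ighm had 11090, 13668, 21863 and 17602 CPM in LPS+ET and was higher than in LPS in 4 of 4 pools, by 0.25 to 0.42 on the log2 scale. The fitted difference was 0.24 ± 0.35 (adjusted p = 0.678), well within the spread between pools. Igj had 210, 62.1, 670 and 397 CPM, with a rise of 1.22 to 1.65 on the log2 scale in 3 pools and a difference of -0.48 in LUL16. Its fitted difference of 1.16 ± 0.73 did not pass (adjusted p = 0.29). In these summed counts the direction of the J chain mRNA therefore depended on the pool. With equal weight per fraction, Igj had 72.7, 69.1, 196 and 170 CPM in LPS. On that weighting it had 141, 82.0, 496 and 283 CPM in LPS+ET, higher in each pool.

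Ighg2b had 52.9, 116, 81.7 and 65.4 CPM in LPS+ET and was lower in 4 of 4 pools, by -1.39 to -0.15 on the log2 scale. The difference was -0.90 ± 0.41 (adjusted p = 0.138). With the pool as a block it was -0.95 with an adjusted p of 0.00398 and was called, as were 12.8% of all genes in that direction and fit. Ighg3 had 45.9, 104.3, 81.5 and 59.5 CPM (-0.31 ± 0.31, adjusted p = 0.533). Iglc2 had 1988, 1102, 3105 and 2346 CPM (-0.34 ± 0.32, adjusted p = 0.509).

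Monosomes, light and heavy polysomes were then fitted separately, and Iglc2 was the gene called after etoposide, in monosomes and in light polysomes. In monosomes, Iglc2 had 1618, 1772, 1143 and 931 CPM in LPS, and it fell with etoposide to 665, 545, 779 and 535 CPM. The groups did not overlap, and the change was -1.02 ± 0.24 on the log2 scale (adjusted p = 0.00812). Ighg3 went from 79.4, 121, 58.1 and 71.1 CPM to 19.4, 38.2, 29.3 and 27.6 CPM, again without overlap. Its difference of -1.45 ± 0.35 missed the threshold narrowly (adjusted p = 0.01002). Ighg2b went from 104.3, 126, 58.1 and 73.2 CPM to 21.5, 67.3, 15.0 and 19.1 CPM, where only the LUL16 value of LPS+ET reached into the LPS range (-1.50 ± 0.55, adjusted p = 0.0727).

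So 1 of 6 was called lower in monosomes, where 3.08% of all genes were, and 2 of 6 did not overlap in that direction, where 11.7% of genes did not. Blocking by pool called 4 of 6, against 10.7% of genes: Iglc2, Ighg3 (-1.48, adjusted p = 6.28e-06), Ighg2b (-1.71, adjusted p = 2.2e-05) and Igkc (-0.50, adjusted p = 0.00963). The call of Iglc2 was lost in 7 of the 12 fits that left out 1 gradient, with adjusted p up to 0.0276. These were the fits without LUL15, LUL16 or LUL17 of LPS, without LUL15, LUL16 or LUL18 of LPS+ET, or without LUL18 of LPS+ET+KU. It was also lost without pool LUL16 (-0.81, adjusted p = 0.0298), where Ighg3 (adjusted p = 0.00307) and Ighg2b (-2.005, adjusted p = 0.000107) were called instead. Ighm (-0.30 ± 0.23, adjusted p = 0.412) and Igj (0.27 ± 0.70, adjusted p = 0.838) were not called in monosomes.

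In light polysomes Iglc2 fell in every pool, from 4068, 3916, 3882 and 3237 CPM to 1979, 1541, 2446 and 1622 CPM. The change was -1.12 ± 0.21 (adjusted p = 0.00185), and it was called in each of the 12 fits that left out 1 gradient. Ighg3 went from 130, 123, 117 and 118 CPM to 55.3, 110, 80.5 and 58.2 CPM, with no overlap (-0.81 ± 0.31, adjusted p = 0.0867). Ighg2b went from 140, 180, 90.3 and 110 CPM to 23.8, 103.9, 30.8 and 26.99 CPM, and again LUL16 alone overlapped LPS (-1.62 ± 0.52, adjusted p = 0.0427). Thus 1 of 6 was called lower, where 4.07% of genes were, and 2 of 6 did not overlap, where 9.41% of genes did not. On library totals alone, which put the median gene at 0.14, 251 of 1026 calls were lower in place of 404 of 1055, and Iglc2 was still called (-0.99, adjusted p = 0.00376). Blocking called 3 of 6, against 12.1% of genes, with Ighg2b (-1.86, adjusted p = 4.22e-06) and Ighg3 (-0.88, adjusted p = 0.00187) beside Iglc2. The same 3 were called without pool LUL16 (Iglc2 adjusted p = 0.00414, Ighg3 0.00665, Ighg2b 4.32e-05), and Ighg2b also without the LPS+ET gradient of LUL16 alone (adjusted p = 0.00337).

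For heavy polysomes neither edgeR nor DESeq2 called any of the 6 after etoposide (0 of 6), where 9.69% of genes were, and 0 had an unadjusted p under 0.05. Iglc2 had 2025, 2111, 2332 and 2203 CPM before and 2268, 1047, 3678 and 2955 CPM after etoposide (0.12 ± 0.42, adjusted p = 0.88). Ighm had 16006, 35158, 29658 and 25444 CPM in LPS+ET and was higher in 4 of 4 pools (0.47 ± 0.37, adjusted p = 0.419). Ighg3 stood at 0.41 ± 0.34 (adjusted p = 0.449), Ighg2b at -0.51 ± 0.42 (adjusted p = 0.447), Igkc at 0.20 ± 0.52 (adjusted p = 0.839) and Igj at 1.28 ± 0.84 (adjusted p = 0.321). For Iglc2, Ighg3 and Ighg2b, fitted values were lower in LPS+ET in both lighter classes, and in heavy polysomes they ranged from -0.51 to 0.41.

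**Figure D4:**
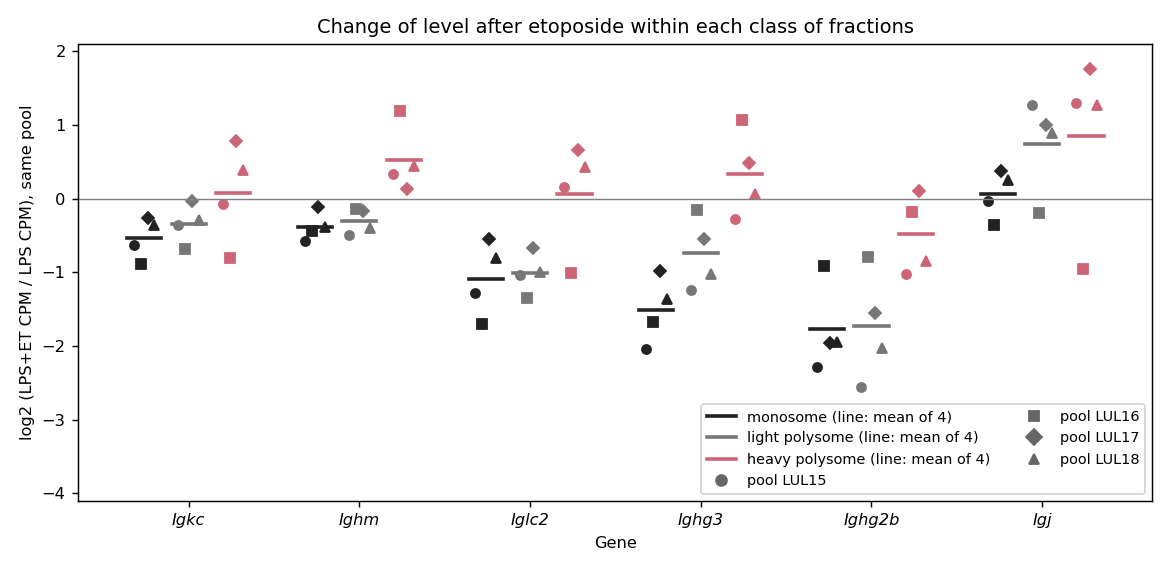
Log2 ratio of the CPM in LPS+ET to that in LPS of the same pool, for each gene in monosomes, light and heavy polysomes, with 1 point per pool and a line at the mean of 4. Iglc2, Ighg3 and Ighg2b lie below 0 in 4 of 4 pools in both lighter classes and on both sides of 0 in heavy polysomes, while Ighm is above 0 there in 4 of 4.

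A test on single fractions compared whole profiles between LPS+ET and LPS. It treats the 13 libraries of a gradient as independent, so its p-values are too small to the extent that they are not. It called 3 of 6, where 31% of all genes were called: Ighg2b (adjusted p = 8.38e-11), Ighg3 (5.92e-07) and Iglc2 (8.21e-07). Igj (0.059), Ighm (0.204) and Igkc (0.543) were not called. Igj was called as well once the pool was a block (adjusted p = 8.78e-08), which made 4 of 6 where 41.7% of genes were called. Igj was also called without the LPS+ET gradient of LUL15 (adjusted p = 0.00904) or LUL16 (0.000504).

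The interaction of treatment and fraction alone, which isolates a change of shape, called the same 3 genes, where 1.37% of genes were called. The adjusted p was 0.00326 for Ighg3 and for Ighg2b and 0.00261 for Iglc2, against 0.48 for Ighm, 0.829 for Igkc and 0.957 for Igj. A term per gradient gave the same 3 (4.94e-07, 1.31e-09 and 9.95e-06), where 5.72% of genes were called. The same 3 were also called on leaving out pool LUL16 or the libraries under 50000 counts. Calls were lost on leaving out single gradients. None of the 6 was called without LUL15 of LPS (Ighg3 adjusted p = 0.116, Ighg2b 0.170, Iglc2 0.138), without LUL17 of LPS (0.0316, 0.0184 and 0.0149) or without LUL18 of LPS+ET (0.0748, 0.130 and 0.189). Without LUL18 of LPS the calls of Ighg3 and Ighg2b were lost (0.0184 and 0.0292), as without LUL17 of LPS+ET (0.0108 and 0.0276). Iglc2 was lost without LUL16 of LPS (0.0305) and Ighg2b without LUL15 of LPS+ET (0.0163).

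The heavy polysome share, from fractions each scaled to CPM, gave the position in percent of the profile. For Ighg3 it was 35.02%, 37.2%, 38.5% and 41.2% in LPS and 51.0%, 59.2%, 62.8% and 61.6% in LPS+ET. The groups did not overlap, and the pools rose by 15.97 to 24.3 percentage points. Iglc2 went from 36.4%, 35.1%, 42.9% and 44.8% to 55.9%, 53.1%, 61.5% and 65.6%, by 17.98 to 20.8 points and without overlap. Ighm, already at 73.8%, 76.5%, 80.8% and 78.6%, stood at 84.7%, 81.7%, 88.4% and 91.0%, by 5.2 to 12.5 points. Such a lack of overlap with LPS+ET above held for 3 of 6, where 4.89% of genes showed it.

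Igkc went from 64.5% ± 3.4 to 72.3% ± 4.5 (SD, n = 4), higher in 4 of 4 pools by 5.6 to 9.0 points but with overlapping groups. Igj went from 51.5% ± 4.9 to 63.5% ± 7.7, higher in 4 of 4 pools by 2.9 to 20.0 points. In the LPS gradient of LUL18, however, the highest scaled value of Igj lay in fraction 4, a library of 14724 counts. The heavy share of Igj in that gradient was 52.4% scaled and 77.7% as deposited. The share without libraries under 50000 counts was not computed. Ighg2b rose in 3 of 4 pools, from 50.0%, 51.2%, 51.0% and 61.8% to 75.5%, 51.0%, 84.7% and 78.6%. In LUL16 it moved by -0.26 points. On the logit scale limma called 0 of 6, where 0.312% of genes were called. The differences were 0.84 ± 0.20 for Ighg3 (adjusted p = 0.0378), 0.78 ± 0.21 for Iglc2 (0.0587), 0.90 ± 0.30 for Ighg2b (0.12), 0.65 ± 0.21 for Ighm (0.108), 0.50 ± 0.21 for Igj (0.188) and 0.37 ± 0.17 for Igkc (0.25), and 5 of 6 had an unadjusted p under 0.05. With counts as deposited and no scaling of fractions, which is the RiboLoad of the study, 0 of 6 were called, where 0% of genes were, with 1 of 6 under an unadjusted p of 0.05.

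**Figure D5:**
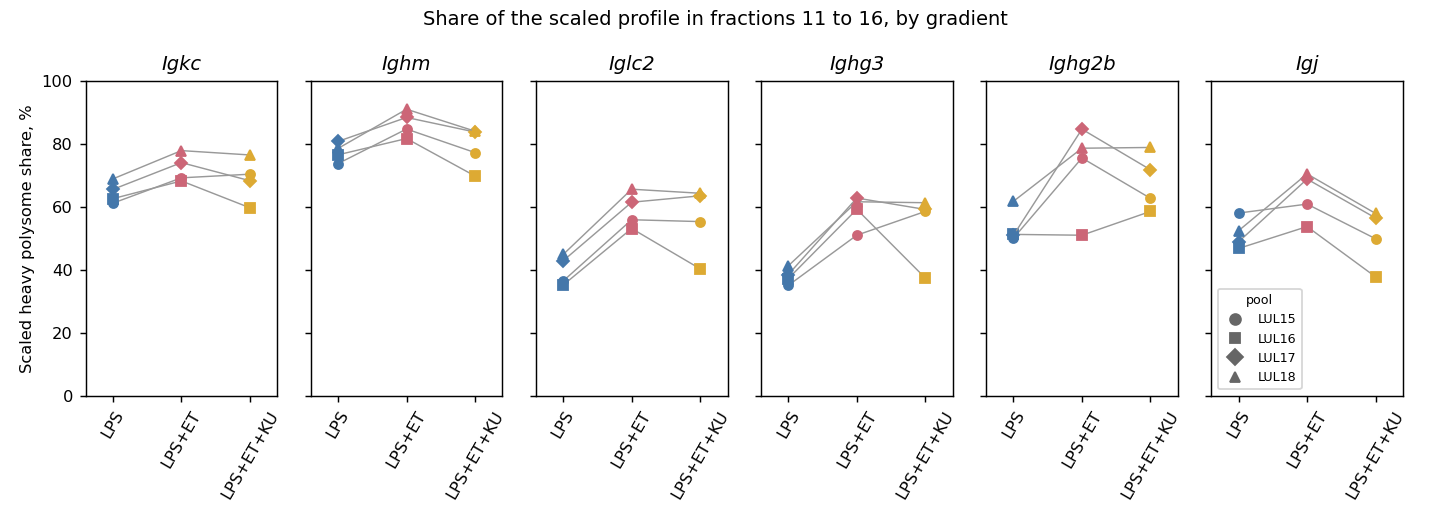
Heavy polysome share of each gene (percent of its scaled profile in fractions 11 to 16) in each gradient, with lines joining gradients of the same pool across LPS, LPS+ET and LPS+ET+KU. Iglc2, Ighg3 and Ighm do not overlap between LPS and LPS+ET, and Igj is lower in LPS+ET+KU than in LPS+ET in 4 of 4 pools.

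Iglc2 peaked in fractions 9, 9, 10 and 10 in LPS and in 12, 12, 13 and 13 in LPS+ET. Ighg3 peaked in fractions 9, 8, 8 and 9 in LPS and in 13, 13, 14 and 14 in LPS+ET. Igkc peaked in fractions 12, 12, 13 and 13 in both. With all libraries, the centre of the profile rose in 4 of 4 pools for each of the 6 genes. Mean rises were then 1.59 fractions for Ighg2b, 1.41 for Ighg3, 0.97 for Iglc2, 0.80 for Ighm, 0.74 for Igkc and 0.67 for Igj. Without libraries under 50000 counts, the centre of Igj was 11.12, 10.54, 10.87 and 11.29 in LPS. In LPS+ET it was 10.88, 10.52, 11.33 and 11.25 on that basis, higher in LUL17 alone. On the same basis the centre of Ighg2b in LUL16 was 10.36 in LPS and 10.19 in LPS+ET. An exact two-sided permutation test over 70 splits gave its smallest possible p, 0.0286, for Ighg3, Iglc2 and Igkc, whose groups did not overlap, as for 3.31% of genes. It gave 0.0571 for Ighg2b and Igj and 0.0857 for Ighm, and adjusted over the 18 centre comparisons none was under 0.171. Without libraries under 50000 counts, the centres of Igkc overlapped, at 10.90 to 11.89 in LPS and 11.44 to 12.30 in LPS+ET. Those of Iglc2 overlapped as well, at 9.74 to 10.69 and 10.63 to 11.52. Those of Ighg3 stayed apart, at 9.50 to 10.42 and 10.58 to 11.94. With counts as deposited, without scaling the fractions, the centre of Igj moved by -0.32 in place of 0.67.

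The ATM inhibitor was compared with etoposide alone. In the summed level 0 of 6 were called by edgeR or DESeq2, with 0 at an unadjusted p under 0.05, where 0.455% of genes were called. In LPS+ET+KU Igkc had 26792, 21119, 86589 and 68626 CPM and lay below LPS+ET in 4 of 4 pools, by -0.41 to -0.20 on the log2 scale (-0.34 ± 0.55, adjusted p = 0.823). Iglc2 had 1335, 818, 2110 and 1648 CPM, below in 4 of 4 pools by -0.58 to -0.43 (-0.52 ± 0.32, adjusted p = 0.469). Igj had 110, 28.1, 355 and 263 CPM, below in 4 of 4 pools by -1.15 to -0.60 (-0.81 ± 0.72, adjusted p = 0.648). Ighg3 had 57.8, 142, 86.1 and 79.6 CPM, above in 4 of 4 pools by 0.08 to 0.45 (0.33 ± 0.31, adjusted p = 0.667). The shifts of one direction within pools were thus small beside the spread between pools that the test uses. Ighm had 11177, 7669, 21438 and 17984 CPM and Ighg2b 50.1, 207, 77.9 and 79.4 CPM, and their differences were -0.14 (adjusted p = 0.896) and 0.39 ± 0.41 (adjusted p = 0.708).

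By class, the same comparison called 0 of 6 in monosomes, light and heavy polysomes, by edgeR and by DESeq2, where 0.213%, 0.292% and 0.572% of genes were called. An unadjusted p under 0.05 was found for Ighg3 in monosomes, for Ighm in light polysomes and for none in heavy polysomes. Ighg3 in monosomes had 33.3, 117, 51.6 and 39.8 CPM with the inhibitor (0.98 ± 0.35, adjusted p = 0.209). With the pool as a block it was called (0.92, adjusted p = 0.00403), as were 2.5% of genes in that direction. Ighm in light polysomes had 6816, 6073, 9608 and 7971 CPM against 4083, 5280, 5911 and 3591 CPM with etoposide alone. The groups did not overlap, which 4.86% of genes showed in that direction, and the pool differences were 0.20 to 1.15 on the log2 scale (0.60 ± 0.23, adjusted p = 0.236). Ighg2b in light polysomes was at 0.72 ± 0.52 (adjusted p = 0.57).

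Along the fractions, 0 of 6 profiles were called for the inhibitor against etoposide alone, where 8.01% of genes were, and 1 of 6 had an unadjusted p under 0.05 (Ighg3, adjusted p = 0.0412). Under the pool block 4 of 6 were called, where 18.3% of genes were: Igj (adjusted p = 0.000152), Ighg3 (0.000978), Ighg2b (0.00203) and Igkc (0.006). Without the block, single omissions added a call of Ighg2b (without LUL16 of LPS+ET, adjusted p = 0.00362), of Ighg3 (without LUL15 of LPS+ET+KU, 0.0032) or of Ighm (without LUL17 of LPS+ET+KU, 0.00499). The interaction called 0 of 6, with 0 at an unadjusted p under 0.05, where 1.05% of genes were called. With a term per gradient it called 1 of 6, Igkc (adjusted p = 0.00205), where 3.63% of genes were.

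The heavy polysome share of Ighm with the inhibitor was 77.2%, 69.8%, 83.8% and 84.0%, below etoposide alone in 4 of 4 pools by -11.9 to -4.6 points (logit difference -0.55 ± 0.21, limma adjusted p = 0.471). Igj had 49.8%, 37.7%, 56.4% and 57.9%, below in 4 of 4 pools by -15.99 to -11.02 points (-0.55 ± 0.21, adjusted p = 0.471). Igj lay within the range of the LPS gradients in 3 of 4 pools and Ighm in 1 of 4, and neither passed the test. Iglc2 (55.9% ± 11.1) and Ighg3 (54.1% ± 11.2) had gradients of LUL15, LUL17 and LUL18 above 55% and a lower LUL16, at 40.3% and 37.4%. For the scaled and the deposited share, 0 of 6 were called, where 0% of genes were, and 2 and 0 of the 6 had an unadjusted p under 0.05. Changes of the centre were -0.80 for Ighm (exact permutation p = 0.143) and -0.28 for Igj, lower in 4 of 4 pools.

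Set against LPS without etoposide, LPS+ET+KU gradients also called 0 of 6 in the summed level by edgeR or DESeq2, where 10.7% of genes were called, with 1 unadjusted p under 0.05 (Iglc2). This comparison shares its samples with the other 2. Iglc2 was lower in 4 of 4 pools, by -1.70 to -0.28 on the log2 scale, and the groups did not overlap, as for 11.4% of genes in that direction. The difference was -0.86 ± 0.32 (adjusted p = 0.0700). With the pool as a block it was called (-0.99, adjusted p = 0.00438), as were 13.3% of genes in that direction. Igj (0.35 ± 0.72, adjusted p = 0.757), Ighg2b (-0.51 ± 0.41, 0.388), Ighm (0.11, 0.854), Igkc (-0.21, 0.816) and Ighg3 (0.02, 0.971) were not called.

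Ratios between the genes of one gradient do not depend on the total of that gradient. They were taken from summed counts, so they do depend on the depths of its fraction libraries. Igkc to Ighm was 3.72, 4.81, 3.61 and 5.45 in LPS. It was 2.92, 1.78, 5.02 and 5.19 after etoposide, and with the inhibitor 2.40, 2.75, 4.04 and 3.82. The kappa constant mRNA was in excess over mu in 12 of 12 gradients, and the groups overlapped. The largest difference in the log2 ratios between LPS+ET and LPS was that of Ighg2b to Ighm, from -6.53 ± 0.78 to -7.68 ± 0.56 (SD, n = 4; exact permutation p = 0.0571). None of the 18 ratio comparisons passed after adjustment, and the lowest adjusted p was 0.771. The 6 genes together took 7.04% ± 1.87 of counts in LPS, 8.31% ± 4.79 after etoposide and 6.72% ± 3.87 with the inhibitor.

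Across the 12 gradients the levels (log2 CPM) of Igkc and Igj correlated at r = 0.877, Ighm and Igj at 0.870, Igkc and Ighm at 0.829 and Ighg3 and Ighg2b at 0.847. Iglc2 correlated with Igkc at 0.741, with Igj at 0.694 and with Ighm at 0.469. Correlations of Ighg3 with Igkc, Ighm, Iglc2 and Igj were negative, from -0.562 (Igj) to -0.223 (Igkc). Those of Ighg2b with the same genes were negative too, from -0.642 (Igj) to -0.169 (Iglc2). These are descriptions over gradients that share pools and libraries. Outside the immunoglobulin genes, the levels most like Igkc were those of Psmg1 (r = 0.969), Mbd1 (0.957) and Ttll4 (0.954), among 7989 genes. For Ighm they were Bccip (0.972), Clptm1l (0.944) and Rpl5 (0.939), and for Igj Pik3cg (0.965), Gm7984 (0.963) and Gpn2 (0.962). By the summed absolute difference of mean fraction shares in LPS, the profiles nearest to Igkc were Marc2 (7.36 percentage points), Dhrs7 (7.53) and Ifi30 (8.83). For Ighm they were Pkm (7.38), Lgals3bp (9.04) and Gm12919 (9.23), and for Igj Ap1s1 (9.71), Tmco1 (11.4) and Srd5a3 (11.9).

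Among the other constant genes, Ighg2c, Igha and Ighg1 (gamma 2c, alpha and gamma 1 heavy chains) were tested and 0 of 3 were called, with fitted rises in LPS+ET against LPS. Ighg2c went from 20.2 ± 3.99 to 46.5 ± 9.89 CPM (SD, n = 4), a difference of 1.09 ± 0.27 (adjusted p = 0.0105). Igha went from 11.5 ± 2.09 to 28.2 ± 12.5 CPM (1.19 ± 0.36, adjusted p = 0.0292) and Ighg1 from 8.92 ± 6.20 to 21.8 ± 11.1 CPM (1.14 ± 0.55, adjusted p = 0.159). Their median was 1.14, where that of all genes was 0.03. Ighe and Igll1 stayed under 1 CPM. Variable, diversity and joining segments had 42 rows of 2 to 16958 counts. The most abundant were Iglv1 (16958), Iglv3 (5413) and Igkv2-109 (862), and of 11 rows tested 0 were called.

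The lists around these genes were counted in the fit of the summed level, where 7.88% of all genes rose and 4.81% fell in LPS+ET against LPS. With the inhibitor, against LPS, 6.25% rose and 4.42% fell. Of 10 tested partners of the B cell receptor, 0 rose and 4 fell in LPS+ET against LPS, with a median of -0.72, among them the kinases Syk (-1.15 ± 0.16, adjusted p = 0.000242) and Lyn (-1.46 ± 0.21, 0.000303) and the inhibitory receptor Cd22 (-2.12 ± 0.40, 0.00171). Of 22 genes for antibody assembly and secretion none passed in either direction (median -0.08). In LPS+ET+KU against LPS 2 of these 22 fell, beside 4.42% of all genes, the disulfide isomerases Pdia4 (-0.80 ± 0.19, adjusted p = 0.00846) and Pdia6 (-0.73 ± 0.17, 0.00899). Of 16 rows for regulators 4 fell and 0 rose in LPS+ET against LPS (median -0.40). Among those that fell were Ets1 (-1.20 ± 0.17, adjusted p = 0.000279) and 1 of the 2 rows of Ebf1 (-1.998 ± 0.21, 2.39e-05), both transcription factors of B cells. In LPS+ET+KU against LPS 5 of the 10 receptor partners fell, as did 5 of the 16 regulator rows and 3 of 10 B cell markers.

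Plasma cell markers summed to 2254 to 2621 CPM in LPS, 2457 to 4453 CPM after etoposide and 2258 to 3747 CPM with the inhibitor. Of the 7 tested 1 rose and 0 fell after etoposide (median 0.41), beside the 7.88% of all genes that rose. It was the surface proteoglycan Sdc1 (3.42 ± 0.32, adjusted p = 7.91e-06), which fell in LPS+ET+KU against LPS+ET (-1.93 ± 0.29, adjusted p = 0.0057) but remained above LPS (1.496 ± 0.30, adjusted p = 0.00352). Of the 10 B cell markers 3 fell after etoposide (median -0.87), beside 4.81% of all genes: Fcer2a (-1.74 ± 0.20, adjusted p = 5.35e-05), Cd22 and Cr2 (-1.32 ± 0.26, 0.00233). T cell markers had 0 of 4 called, myeloid markers 0 of 8, NK cell and erythroid markers 0 of 1 each after etoposide. One of the 8 myeloid markers, Cd14, rose with the inhibitor against LPS (3.83 ± 0.51, adjusted p = 0.000248). The part of these markers in the values of the immunoglobulin genes was not tested.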

How the data were processed

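Splenic B cells in LPS, LPS+ET or LPS+ET+KU were fractionated on sucrose gradients, and 3′ end libraries were made from 13 fractions of 12 gradients and from fraction 17 of 1 gradient. The authors reverse transcribed RNA of matched concentration with primers carrying 5 random bases, removed PCR duplicates by them, trimmed A tracts and aligned to GRCm38. The submitters' processing notes name TopHat2 2.0.12, HTSeq and DESeq2 1.6.3. The deposited values are counts per gene at poly(A) sites, not normalized, and were whole numbers in all 157 libraries. Gene symbols, identifiers and positions were taken from the table, and annotation and sequence from GENCODE M21 on the same assembly. Of the 157 columns, 79 matched a single sample and 78, of pools LUL16 and LUL18, a treatment and fraction only, so gradients are named by pool.

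Counts were summed per gradient or per class of fractions and tested with edgeR 4.0.16 (TMM, default expression filter, quasi-likelihood F-test, two-sided) over all 12 gradients with a treatment term alone. P-values were adjusted over all genes by Benjamini-Hochberg, and those under 0.01 were called. Profiles and interactions were fitted on the 104 single-fraction libraries of a pair of treatments. Heavy polysome shares of the 8000 genes that averaged at least 100 counts per gradient were tested as logits, with 0.5 added, by limma 3.58.1. Ratios and centres were compared by exact two-sided permutation over 70 splits (smallest p 0.0286), adjusted within each family of 18. Exact sign flips of 4 pool differences cannot go below 0.125. Log2 fold changes are given with SE and groups as mean ± SD. Percentages of all genes beside non-overlapping groups are over 7999 genes. DESeq2 1.42.0, R 4.3.3, Python 3.11.15, numpy 2.4.6, pandas 2.3.3, scipy 1.17.1 and matplotlib 3.10.9 were also used.

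Whether pools pair the gradients was checked over 8000 genes: deviations from the treatment means correlated at 0.353 to 0.894 (median 0.685) within a pool, over 0.1 in 12 of 12 pairs, and at -0.672 to 0.403 (median -0.322) between pools, over 0.1 in 8 of 36. The pools thus paired the gradients, on the strength of the column names alone, since no statement ties a pool to animals. The tests above carry no pool term, and fits with the pool as a block were alternatives, given where they changed a call. P-values of levels, shares, ratios and centres measure the spread between these gradients. Those of profiles and interactions rest on the spread between single-fraction libraries. Replicate libraries differed by more than sampling noise, so none was counted as a duplicate. On data simulated for LPS+ET against LPS, with 11674 genes, the level test recovered 69 of 100 genes changed 2-fold and 100 of 100 changed 4-fold. The scaled share test, with 7493 genes, recovered 19 of 98 and 86 of 96. These counts were drawn with a single dispersion for all genes and no difference between pools. The recovery therefore does not give the power for the immunoglobulin genes.

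The genes, lists and tests were chosen with earlier results of these data known. Named genes were the 6 found, the fixed list of other constant genes, the 3 most abundant variable segments, the 3 genes outside the immunoglobulin genes most like Igkc, Ighm and Igj in level over gradients and in LPS fraction shares, and at most 3 called genes from each fixed list, by adjusted p, except 1 gene of the regulator list that is not reported here. Alternatives were another normalization, filter, block, threshold, weighting of fractions or class limit, and the omission of each gradient. The omission of pool LUL16, of libraries under 50000 counts, and scaling of classes by library totals alone were chosen after seeing the data. Ighd and Iglc1 were not analysed here, so the ratio of Ighd to Ighm was not computed and lambda stands for Iglc2.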

Additional observations from a re-analysis of the deposited data

Results flagged for a closer look

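In 72 groups of 4 gradients, one gradient stood apart from the other 3 beyond Dixon's 95% limit in 6 cases, where chance gives about 1 in 20. Of these, 4 lay in the LPS+ET+KU gradient of pool LUL16. There the scaled heavy polysome share of Ighg3 was 37.4% (58.5% to 61.3% in the others) and the centre of its profile 9.70 (11.2 to 11.5). The log2 ratio of Ighg3 to Ighm was -5.75 (-7.96 to -7.60) and that of Ighg2b to Ighm -5.21 (-8.10 to -7.80). In the LPS gradient of LUL18, the scaled heavy polysome share of Ighg2b was 61.8% (50.0% to 51.2% in the others) and the centre of its profile 11.3 (10.3 to 10.4).

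The fraction 17 library of the LPS gradient of LUL16, which entered no comparison, held 777 counts. Igkc took 72 of them, or 9.27% (95% exact interval 7.32% to 11.5%), against 3.69% in fraction 16 of the same gradient. Iglc2 took 4, or 0.515% (0.140% to 1.31%), against 0.179%. Ighm had 3 counts and Igj 1, and Ighg3 and Ighg2b had 0 counts, which allows a share of up to 0.386% by 3 counts of the total and 0.474% by the exact interval. These intervals and limits cover counting error only.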

How the results depend on the processing

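With the pool as a replicate block, 1 of 6 genes was called in the summed level for LPS+ET against LPS and 1 for LPS+ET+KU against LPS, 4 in monosomes and 3 in light polysomes for LPS+ET against LPS, and for LPS+ET+KU against LPS+ET 1 in monosomes and 4 in the whole profile. The block changed no other call than those given here and beside the results. For LPS+ET against LPS in monosomes, 2 were called under each of a threshold of 0.05, TMM computed without immunoglobulin genes, DESeq2 and omission of pool LUL16. In light polysomes 2 were called at an adjusted p under 0.05 and 3 without pool LUL16. A term per gradient gave 1 call in the interaction for LPS+ET+KU against LPS+ET. Leaving out 1 gradient gave 0 to 3 calls in monosomes and 1 to 2 in light polysomes for LPS+ET against LPS, 0 to 3 in the interaction, and 0 to 1 in the whole profile for LPS+ET+KU against LPS+ET.

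Each difference that reversed below was not called in the report. In the summed level, Igkc for LPS+ET against LPS was -0.16 with the block and -0.0049 with equal weight per fraction. Igj for LPS+ET+KU against LPS was -0.14 with the block. Ighg3 for that comparison was -0.070 with the block, -0.0047 with TMM without immunoglobulin genes, -0.0026 with DESeq2, -0.00075 with the 8 gradients alone and -0.16 without pool LUL16. Without that pool Igkc was 0.024 there, and Ighm was 0.014 for LPS+ET+KU against LPS+ET. In heavy polysomes for LPS+ET against LPS, the block gave -0.048 for Igkc and -0.080 for Iglc2. In LPS, library totals alone gave 0.71 for Iglc2 in heavy polysomes against monosomes. With equal weight per fraction the log2 ratio of Igkc to Ighm changed by 0.13 for LPS+ET+KU minus LPS+ET, and the share of the 6 genes by 0.50 points for LPS+ET+KU minus LPS. With counts as deposited the centre moved, for LPS+ET+KU minus LPS, by -0.71 for Igkc, -0.0057 for Ighg2b and -0.87 for Igj, and by -0.32 for Igj in LPS+ET minus LPS. Without libraries under 50000 counts it moved by -0.21 for Igj in LPS+ET+KU minus LPS. The cause was not tested.

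Leaving out 1 gradient crossed 0 in these ranges. Summed level, LPS+ET against LPS: Igkc -0.26 to 0.39. LPS+ET+KU against LPS+ET: Igkc -0.73 to 0.047, Ighm -0.40 to 0.082, Ighg2b -0.18 to 0.65. LPS+ET+KU against LPS: Igkc -0.61 to 0.046, Ighm -0.16 to 0.32, Ighg3 -0.27 to 0.21, Igj -0.17 to 0.71. Classes, LPS+ET against LPS: Igj in monosomes -0.44 to 0.80, and in heavy polysomes Igkc -0.14 to 0.43, Iglc2 -0.14 to 0.36 and Ighg3 -0.038 to 0.61. Classes, LPS+ET+KU against LPS+ET: in monosomes Igj -0.64 to 0.82, Ighg2b -0.28 to 1.40, Iglc2 -0.36 to 0.0026 and Igkc -0.097 to 0.57, in light polysomes Ighg2b -0.024 to 1.48, Igj -0.47 to 0.32 and Igkc -0.18 to 0.46, and in heavy polysomes Ighg3 -0.25 to 0.41, Ighg2b -0.20 to 0.67 and Igkc -0.68 to 0.0056. Heavy share on the logit scale: as deposited, Igj -0.18 to 0.83 for LPS+ET against LPS and Iglc2 -0.91 to 0.029 for LPS+ET+KU against LPS+ET, and scaled, in the latter, Ighg3 -0.29 to 0.040 and Iglc2 -0.24 to 0.083. Heavy against monosome in LPS: Iglc2 -0.18 to 0.088 and Ighg2b -0.057 to 0.095. Log2 ratios, LPS+ET+KU minus LPS+ET: Igkc to Ighm -0.42 to 0.10, Ighg2b to Ighm -0.23 to 0.73, Iglc2 to Igkc -0.41 to 0.023. LPS+ET+KU minus LPS: Ighg3 to Ighm -0.59 to 0.15, Igj to Ighm -0.38 to 0.34. The share of the 6 genes ran from -0.48 to 2.73 points for LPS+ET minus LPS, -3.05 to 0.15 for LPS+ET+KU minus LPS+ET and -1.77 to 0.92 for LPS+ET+KU minus LPS. Centres: Ighm -0.26 to 0.28 for LPS+ET+KU minus LPS, and for LPS+ET+KU minus LPS+ET Iglc2 -0.26 to 0.16 and Ighg3 -0.64 to 0.0025.

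Library totals alone put the median gene of light polysomes at 0.12 for LPS+ET+KU against LPS+ET, and split the calls of all genes for that comparison 9 higher to 8 lower in place of 6 to 13 in monosomes, 14 to 8 in place of 14 to 15 in light polysomes and 37 to 16 in place of 29 to 36 in heavy polysomes. In the other settings, 836 single-gene values kept direction and side of the threshold. For comparisons and counts of called genes, 596 kept direction and side of the threshold or a similar count. Of the single-gene values 21 passed the threshold they had missed and 10 no longer passed it. Of the 6 genes Ighg3, Ighg2b and Igj had the fewest counts, 13644 to 33644 each in all, but the SE of the summed level was larger for Igkc (0.55) than for Ighg3 (0.31) or Ighg2b (0.41).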
